A study of Homo sapiens with 9 samples.

Results

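The MYC, MAX and MXD network was followed here as 10 genes chosen by name: MYC, MYCN and MYCL, their shared partner MAX, the antagonists MXD1, MXD3, MXD4, MXI1 and MNT, and the MAX-like protein MLX. They are 10 of the 62666 genes in the deposited table. Of these, 17910 genes passed the filter on low counts and were tested, among them 9 members, and MYCN was the member left out. The libraries are polyA RNA sequencing from 3 human breast epithelial cell lines of one lineage, with 3 libraries per line. MCF10A is an immortalized, non-tumorigenic mammary epithelial line. MCF10AT1 derives from MCF10A and carries activated HRAS, so it represents a premalignant state, and MCF10Ca1a is a carcinoma-forming line derived from the same lineage through a xenograft. The medium of all 3 lines had EGF at 20 ng/mL, cholera toxin at 100 ng/mL, hydrocortisone at 500 ng/mL and insulin at 10 µg/mL. It also held NaHCO3 at 14 mM and L-glutamine at 2 mM. Horse serum was 5% for MCF10A and MCF10Ca1a and 2.5% for MCF10AT1, so serum and line cannot be told apart in either comparison with MCF10AT1. Each stage is represented by a single cell line, so line and stage cannot be told apart either.

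MYC proteins bind DNA as dimers with MAX, at the E-box sequence CACGTG and its variants, and raise the transcription of genes for ribosome production, metabolism and growth. MXD proteins, MXI1 and MNT also need MAX as a partner, bind the same sites and recruit SIN3 and histone deacetylases, so they oppose MYC. MLX forms a parallel branch with MLXIP and MLXIPL, which respond to glucose metabolites, and it can also pair with MXD1, MXD4 and MNT. In epithelia MYC goes with proliferation, while MXD1 and MXI1 are known as genes of differentiating or resting cells.

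The libraries of MCF10A and MCF10AT1 held 62898823 to 69508842 estimated counts. Those of MCF10Ca1a held 32930503 to 35243012, so low levels are measured less precisely there. The labels do not say whether the 3 libraries of a line came from separate cultures, so the p-values measure the spread between these libraries, which may be technical. MCF10A replicate 1 stood apart from its mates. The chi-square statistic per degree of freedom over genes was 32.2 and 74.8 against MCF10A replicates 2 and 3 and 11.6 between those 2, whereas it was 2.51 to 17.1 among the libraries of the other lines. All 8 epithelial markers were above 3 counts in every line, and their summed level was 2369 to 3237 TPM (a level corrected for transcript length and set relative to the library's total) in MCF10A, 3410 to 3859 in MCF10AT1 and 4109 to 4240 in MCF10Ca1a. Single markers moved in both directions. Against MCF10A, CLDN4 had log2 changes of 5.29 in MCF10AT1 and 6.66 in MCF10Ca1a, and KRT14 of −2.26 and −5.65. Of 7 blood and endothelial markers, those at 3 counts or fewer in all 3 lines included PTPRC, VWF, CDH5 and CD3E. The list summed to 8.13 to 9.99 TPM in MCF10A, 4.43 to 5.16 in MCF10AT1 and 15.8 to 21.0 in MCF10Ca1a. Within it, PECAM1 had a log2 change of 3.86 and CD14 of −5.43 in MCF10Ca1a against MCF10A. Of 7 fibroblast markers, COL1A2 and COL3A1 were at 3 counts or fewer in all 3 lines, and PDGFRA and LUM in MCF10A and MCF10Ca1a but not in MCF10AT1. The list summed to 6.43 to 7.23 TPM in MCF10A, 27.7 to 31.5 in MCF10AT1 and 1.94 to 2.33 in MCF10Ca1a. DCN had log2 changes of 2.79 in MCF10AT1 against MCF10A and −7.46 in MCF10Ca1a against MCF10AT1, and COL1A1 of −1.47 and 0.63. The part of either list in the results was not tested. In such bulk libraries, fewer cells of a type and less RNA per cell cannot be told apart.

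The network changed little at MYC itself and much more among its partners and antagonists. In MCF10Ca1a against MCF10A, MXD1, MNT, MXI1, MYCL, MLX and MYC rose, whereas MXD3, MXD4 and MAX fell. These are 6 members higher, 3 lower and 0 without a call among the 9 tested, where a call is a Benjamini-Hochberg adjusted p under 0.05, adjusted over every tested gene, in the quasi-likelihood test of edgeR. In the same comparison 80.9% of all genes tested were called, 39.0% higher and 41.9% lower. In MCF10AT1 against MCF10A, MYCL, MXI1 and MNT rose, MAX, MXD3 and MXD4 fell, and MYC, MXD1 and MLX were not called, beside 61.6% of all genes called, 29.8% higher and 31.8% lower. In MCF10Ca1a against MCF10AT1, 5 members rose (MXD1, MNT, MXI1, MLX and MYC) and 4 fell (MXD4, MXD3, MAX and MYCL), beside 78.4% called, 38.0% higher and 40.3% lower. The shares of members called are therefore near the shares over all genes, and the sizes and directions of the single genes carry the description. The comparisons share libraries, so they are not independent of each other. Without MCF10A replicate 1 the counts were 3 higher and 4 lower in MCF10AT1 against MCF10A, and stayed at 6 and 3 in MCF10Ca1a against MCF10A. On the TPM scale, log2(TPM + 0.1), 5 members were lower in MCF10AT1 against MCF10A, MXD1 and MLX being called as well. On the same scale higher genes made up 37.0% of the calls over all genes in MCF10AT1 against MCF10A, compared with 48.4% on counts, and 61.2% compared with 48.5% in MCF10Ca1a against MCF10AT1. All genes together had a median change on that scale of −0.11 in MCF10AT1 against MCF10A, 0.10 in MCF10Ca1a against MCF10A and 0.21 in MCF10Ca1a against MCF10AT1. On counts the medians were within 0.05 of 0.

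**Figure D1:**
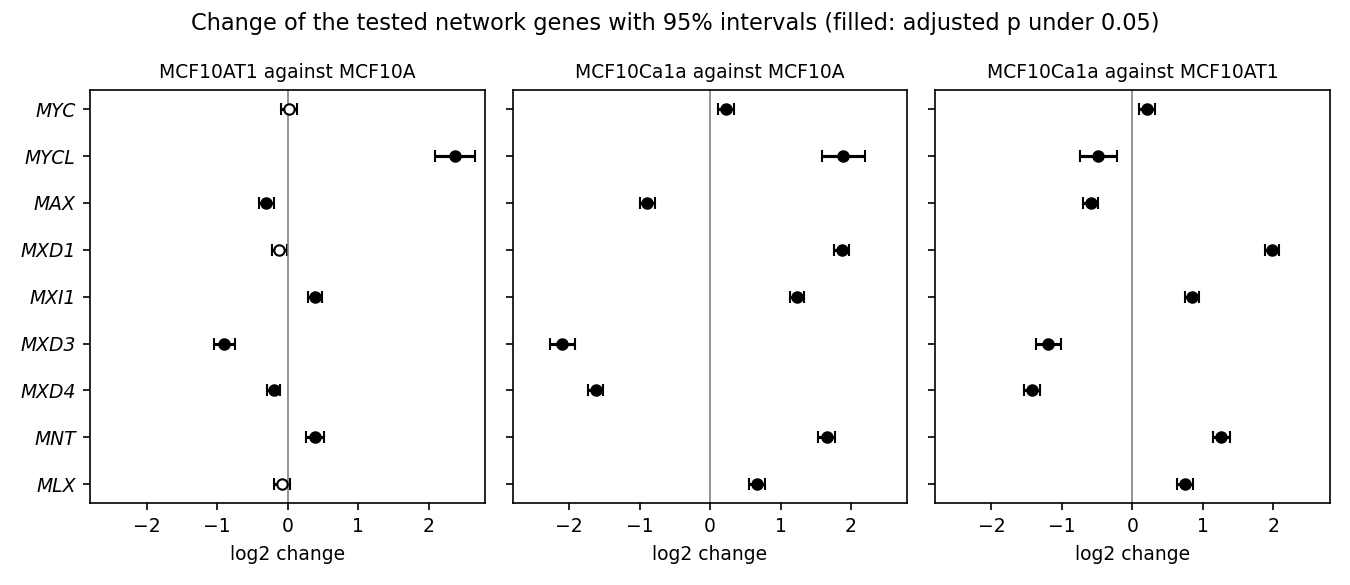
Fitted log2 change of the 9 tested network genes in the 3 comparisons, with 95% intervals; filled points have an adjusted p under 0.05. MXD1, MNT and MXI1 lie to the right and MXD3, MXD4 and MAX to the left in both comparisons with MCF10Ca1a, while MYC stays within 0.23 of 0 in all 3.

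MYC, the transcription factor at the centre of the network, was the member with the highest level per length in every line. Its level in CPM (counts relative to the library's total, scaled by TMM, with no correction for length) was 481, 438 and 431 in the MCF10A libraries, 458, 463 and 451 in MCF10AT1 and 518, 514 and 546 in MCF10Ca1a. The MCF10A and MCF10AT1 libraries overlapped, and all 3 MCF10Ca1a libraries were above the other 6. The log2 change was 0.02 ± 0.06 (SE) in MCF10AT1 against MCF10A (edgeR adjusted p = 0.768), with a 95% interval from −0.09 to 0.13. In MCF10Ca1a it was 0.22 ± 0.06 against MCF10A (edgeR adjusted p = 0.00265), or 1.17-fold, and 0.20 ± 0.06 against MCF10AT1 (edgeR adjusted p = 0.00542). Without the filter on low counts these MCF10Ca1a changes became 0.15 and 0.11 and lost the call (edgeR adjusted p = 0.0601 and 0.177). Without MCF10A replicate 1, in which MYC was higher than in its mates, the change in MCF10Ca1a against MCF10A was 0.26. On log2(TPM + 0.1), MCF10AT1 against MCF10A gave −0.13, beside the median of all genes of −0.11. On that scale the change in MCF10Ca1a was the largest of all alternatives, 0.35 against MCF10A and 0.48 against MCF10AT1, beside medians of 0.10 and 0.21. The gene lies at 8:127735434-127741434 on the plus strand (GENCODE 29 annotation, GRCh38).

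Of the 2 paralogs of MYC, only MYCL had a level that could be tested, and it was low. MYCL, the member of the family first found in lung cancer, had 35, 34 and 41 counts in the MCF10A libraries, 208, 192 and 161 in MCF10AT1 and 78, 63 and 75 in MCF10Ca1a. In CPM this was 0.525 to 0.587, 2.59 to 3.12 and 1.87 to 2.18, with no overlap between lines. It rose 5.17-fold in MCF10AT1 against MCF10A (log2 change 2.37 ± 0.15 SE, edgeR adjusted p = 7.80e-09) and 3.71-fold in MCF10Ca1a against MCF10A (1.89 ± 0.16 SE, edgeR adjusted p = 5.39e-08). Even so, at 1.11 ± 0.10 TPM in MCF10AT1 and 1.15 ± 0.10 TPM in MCF10Ca1a (SD, n = 3) it stayed far under MYC. The order of MCF10AT1 and MCF10Ca1a differed between scales. The change of −0.48 ± 0.13 on counts (edgeR adjusted p = 0.00467) lost its call on the deposited length-scaled counts (−0.24, edgeR adjusted p = 0.163) and scaled counts (−0.22, edgeR adjusted p = 0.291) and turned to 0.051 on log2(TPM + 0.1), beside the median of all genes of 0.21. The cause was not tested. MYCN, the paralog of neural tissue and neuroblastoma, had 1 count in 1 MCF10A library, 2 and 1 in 2 MCF10Ca1a libraries and 0 in the other 6, so it was at or below the floor of 3 counts everywhere and was not tested. MYCL lies at 1:39895426-39902256 (minus strand) and MYCN at 2:15940564-15947007 (plus strand).

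**Figure D2:**
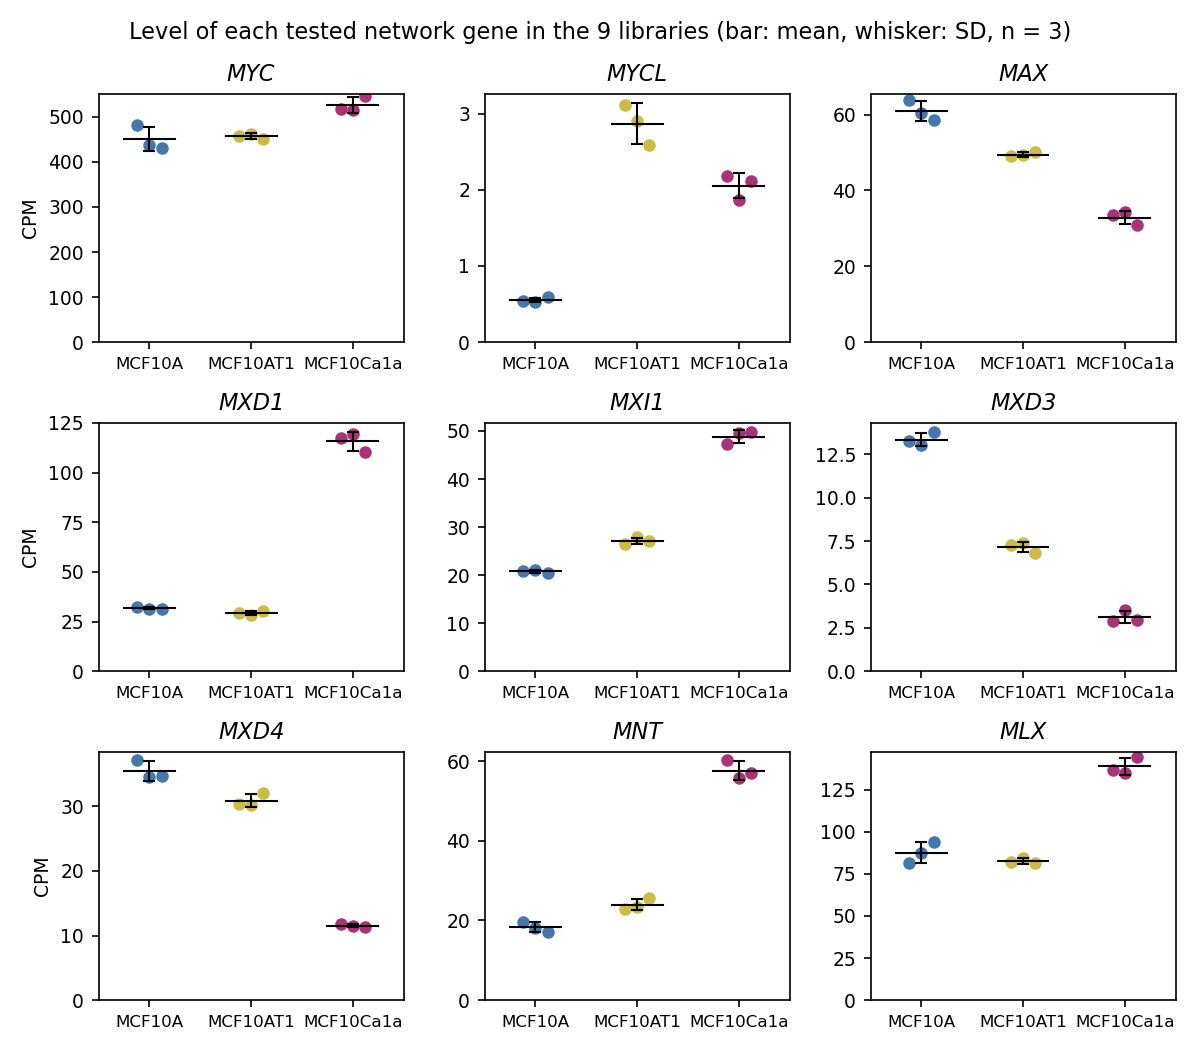
Level in CPM of the 9 tested network genes in each of the 9 libraries, with the mean (bar) and SD (whisker) of each line and a separate axis from 0 for each gene. MAX, MXD3 and MXD4 step down and MXI1 and MNT step up from MCF10A through MCF10AT1 to MCF10Ca1a, whereas MXD1 and MLX differ from MCF10A in MCF10Ca1a and little in MCF10AT1.

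MAX, the partner that both MYC and its antagonists require for DNA binding, fell along the series of lines. It was at 63.9, 60.4 and 58.5 CPM in the MCF10A libraries, 49.0, 49.2 and 50.1 in MCF10AT1 and 33.4, 34.2 and 30.8 in MCF10Ca1a. No library of one line reached the range of another. The fall was 1.23-fold in MCF10AT1 (log2 change −0.30 ± 0.05 SE, edgeR adjusted p = 2.09e-04) and 1.86-fold in MCF10Ca1a (−0.89 ± 0.05 SE, edgeR adjusted p = 2.23e-09), both against MCF10A. Against MCF10AT1, MCF10Ca1a was lower by 0.59 ± 0.06 on the log2 scale (edgeR adjusted p = 2.32e-07, log2 change −0.59). That last fall missed the threshold only on log2(TPM + 1) without a filter (−0.31, limma adjusted p = 0.057). MAX lies at 14:65006174-65102695 on the minus strand.

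The antagonists split into genes that rose and genes that fell. MXD1, which is induced as many epithelial cells differentiate, was at 32.5, 31.2 and 31.5 CPM in MCF10A, 29.2, 28.3 and 30.2 in MCF10AT1, and then 117, 120 and 110 in MCF10Ca1a. All MCF10Ca1a libraries were far above the rest, and the MCF10AT1 libraries lay just under those of MCF10A. The rise in MCF10Ca1a was 3.64-fold against MCF10A (log2 change 1.87 ± 0.05 SE, edgeR adjusted p = 5.80e-13) and 3.95-fold against MCF10AT1 (1.98 ± 0.05 SE, edgeR adjusted p = 6.49e-13). The difference of −0.12 ± 0.05 between MCF10AT1 and MCF10A was not called (edgeR adjusted p = 0.0618), but it lay at the threshold. It was called with DESeq2 (−0.13, adjusted p = 0.0479), on the scaled counts (−0.14, edgeR adjusted p = 0.0446), on log2(TPM + 0.1) (−0.26, limma adjusted p = 0.0132) and without MCF10AT1 replicate 3 (−0.14, edgeR adjusted p = 0.0479).

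MXI1, also called MXD2, was at 20.8, 21.0 and 20.4 CPM in MCF10A, 26.6, 27.9 and 27.1 in MCF10AT1, compared with 47.2, 49.5 and 49.8 in MCF10Ca1a. MNT, the broadly expressed antagonist that is present in dividing as well as resting cells, was at 19.7, 18.1 and 17.2 CPM, then 22.9, 23.4 and 25.7, then 60.2, 55.6 and 57.0. Both genes rose at each step with no overlap between lines. MXI1 rose by 0.39 ± 0.05 in MCF10AT1 (edgeR adjusted p = 9.13e-06) and by 1.23 ± 0.05 in MCF10Ca1a (edgeR adjusted p = 1.78e-11) on the log2 scale, and MNT by 0.39 ± 0.06 (edgeR adjusted p = 1.38e-04) and 1.65 ± 0.06 (edgeR adjusted p = 1.83e-11), each against MCF10A. Against MCF10AT1, the rise in MCF10Ca1a was 0.85 ± 0.05 for MXI1 and 1.26 ± 0.06 for MNT. The smaller MNT step lost its call on log2(TPM + 1) (0.24, limma adjusted p = 0.0522). The genes lie at 2:69897688-69942945 (MXD1, plus strand), 10:110207605-110287365 (MXI1, plus strand) and 17:2384060-2401118 (MNT, minus strand).

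MXD3 and MXD4 went the other way. MXD3, the family member tied to the S phase of dividing cells, was at 13.3, 13.0 and 13.8 CPM in MCF10A, 7.28, 7.37 and 6.84 in MCF10AT1, and then 2.91, 3.54 and 2.96 in MCF10Ca1a. MXD4 was at 37.2, 34.5 and 34.7 CPM in MCF10A, 30.4, 30.2 and 32.0 in MCF10AT1, compared with 11.7, 11.5 and 11.3 in MCF10Ca1a. Neither gene had overlapping lines, and the lowest values of both were in MCF10Ca1a. MXD3 fell 1.87-fold in MCF10AT1 (log2 change −0.90 ± 0.08 SE, edgeR adjusted p = 2.38e-07) and 4.27-fold in MCF10Ca1a (−2.09 ± 0.09 SE, edgeR adjusted p = 4.44e-11). MXD4 fell 1.15-fold (−0.20 ± 0.05 SE, edgeR adjusted p = 0.00327) and 3.08-fold (−1.62 ± 0.06 SE, edgeR adjusted p = 5.48e-12). Between MCF10Ca1a and MCF10AT1 the log2 changes were −1.19 ± 0.09 for MXD3 and −1.42 ± 0.06 for MXD4. MXD3 lies at 5:177301461-177312757 and MXD4 at 4:2247432-2262294, both on the minus strand. Exons of MXD3 overlap those of RAB24 on the same strand and of PRELID1 on the other, so reads from these genes could be split between them by the counting. The other overlaps with named protein-coding genes are MXD1 with SNRNP27 on the same strand and MLX with PSMC3IP on the opposite one.

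MLX, the shared partner of the glucose-responsive branch, was at 81.7, 87.1 and 94.0 CPM in MCF10A, 82.0, 84.4 and 81.2 in MCF10AT1, and then 137, 135 and 144 in MCF10Ca1a. The first 2 lines overlapped, and MCF10Ca1a was above both. The rise in MCF10Ca1a was 1.58-fold against MCF10A (log2 change 0.66 ± 0.06 SE, edgeR adjusted p = 9.34e-08) and 1.68-fold against MCF10AT1 (0.75 ± 0.06 SE, edgeR adjusted p = 2.96e-08). The difference between MCF10AT1 and MCF10A was −0.09 ± 0.06 (edgeR adjusted p = 0.212, 95% interval −0.20 to 0.03). Without MCF10A replicate 1 it became −0.13 and was called (edgeR adjusted p = 0.0245), and on log2(TPM + 0.1) it was −0.25 (limma adjusted p = 0.00101), beside the median of all genes of −0.11. MLX lies at 17:42567068-42573239 on the plus strand. Of the genes that MLX pairs with in this branch, MLXIP was at 60.2 to 67.3 CPM in MCF10A and lower by 0.31 in MCF10AT1 (log2 change −0.31), while MLXIPL had at most 5 counts in any library.

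Set beside each other per length, MYC stood above its antagonists in each library of all 3 lines. MYC was at 286 ± 36.3 TPM in MCF10A, 261 ± 4.30 in MCF10AT1 and 364 ± 7.66 in MCF10Ca1a (SD, n = 3 each). The summed level of MXD1, MXD3, MXD4, MXI1 and MNT was 59.97 ± 5.38, 50.3 ± 0.33 and 103.8 ± 3.19 TPM. The sum was thus higher in all 3 MCF10Ca1a libraries than in the other 6, although 2 of its 5 genes were lowest there. The ratio of MYC to the sum was 4.94, 4.77 and 4.59 in the MCF10A libraries, 5.20 ± 0.12 in MCF10AT1 and 3.51 ± 0.18 in MCF10Ca1a. MAX was at 56.3 ± 9.59, 39.1 ± 0.63 and 31.4 ± 1.65 TPM. The summed antagonists were therefore close to MAX in MCF10A, at a ratio of 1.08 ± 0.11, and well above it in MCF10Ca1a, at 3.31 ± 0.24. MYC exceeded MAX 5.12-fold in MCF10A, 6.69-fold in MCF10AT1 and 11.6-fold in MCF10Ca1a (means of 3 libraries). MAX TPM includes MAX-209, a short retained-intron transcript, at 11.2, 11.4 and 0 TPM in the MCF10A libraries. It was at 0 in MCF10AT1 and at 0, 0 and 4.08 TPM in MCF10Ca1a. The ratio of the sum to MAX was 1.01, 1.01 and 1.21 in the MCF10A libraries, so its mean there depends on MAX-209. These ratios are of transcripts, not proteins, and no test was run on sums of members.

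**Figure D3:**
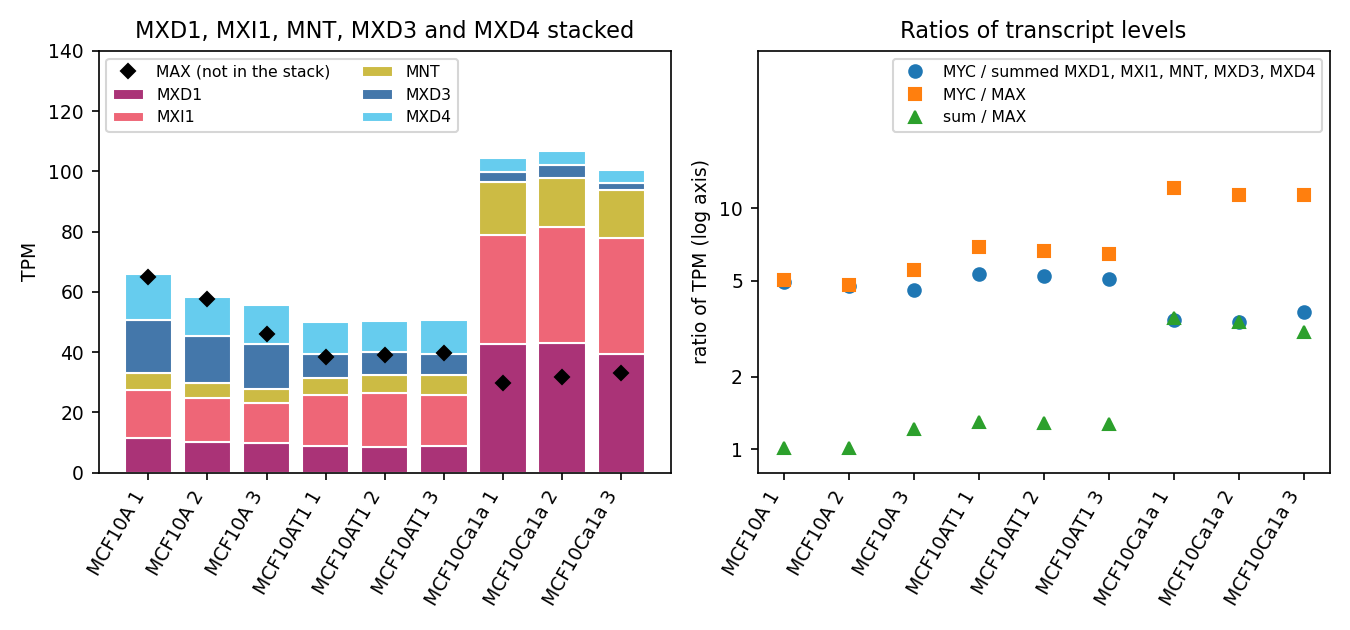
Left, TPM of the 5 antagonists stacked for each library, with MAX as diamonds; right, ratios of TPM on a log axis for each library. In MCF10Ca1a the stack reaches about 104 TPM on average and consists mostly of MXD1 and MXI1, and the ratio of the sum to MAX moves from near 1 to above 3.

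The makeup of the antagonist pool also differed between the lines. In MCF10A, MXD3 made up 26.9 ± 0.28% of the summed TPM, MXI1 24.5 ± 0.54%, MXD4 22.9 ± 0.45%, MXD1 17.4 ± 0.22% and MNT 8.29 ± 0.34% (SD, n = 3). In MCF10Ca1a, MXD1 made up 40.2 ± 0.80%, MXI1 36.4 ± 1.74%, MNT 15.98 ± 0.93%, MXD4 4.32 ± 0.11% and MXD3 3.15 ± 0.79%. MCF10AT1 lay between for MXD3, at 14.9 ± 1.09%, and was near MCF10A for MXD1, at 17.3 ± 0.38%. The order of levels in MCF10A was MYC, MAX, MLX, MXD3, MXI1, MXD4, MXD1, MNT and MYCL. Neighbours whose libraries overlapped in that order were MAX and MLX, MXD3 and MXI1, and MXI1 and MXD4. In MCF10AT1 the order was MYC, MLX, MAX, MXI1, MXD4, MXD1, MXD3, MNT and MYCL, with no overlapping neighbours. In MCF10Ca1a it was MYC, MLX, MXD1, MXI1, MAX, MNT, MXD4, MXD3 and MYCL, and only MXD4 and MXD3 overlapped. MAX thus had rank 2 in MCF10A by mean TPM and rank 5 in MCF10Ca1a. The first of these ranks rests on MCF10A replicates 1 and 2. In replicate 3, where MAX-209 was at 0 TPM, MAX was at 46.0 TPM and MLX at 54.3.

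Transcripts of the members were compared as shares within their gene, on log2 of a transcript's TPM over that of the gene's other transcripts, with 0.1 TPM added to both. For transcripts near 0 TPM this value also moves with the gene's level. Of 120 member transcripts in the table, 40 had at least 1 TPM in 3 or more libraries and were tested. In MCF10Ca1a, 16 shares were called against MCF10A and 18 against MCF10AT1 (limma with Benjamini-Hochberg adjustment over all transcripts tested), while 1 was called in MCF10AT1 against MCF10A. Over all 40848 transcripts tested, 31.6%, 25.3% and 4.72% were called in these 3 comparisons. The 18 calls against MCF10AT1 became 9 without MCF10AT1 replicate 1, 10 without MCF10AT1 replicate 3 and 10 without MCF10Ca1a replicate 3. These values come from Salmon's division of reads among overlapping transcripts, which is less certain than a gene's total.

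MAX showed a change in its 3′ structure. The 2 forms of MAX known best differ by an exon of 27 bases, 9 codons, near the start of the coding sequence (14:65101546-65101572, minus strand, GRCh38). This exon lies before the basic helix-loop-helix region, and the 2 forms are printed here from the start codon to 60 bases past the exon, with the exon in capitals, to show what separates them (GENCODE 29 transcripts):
MAX-205: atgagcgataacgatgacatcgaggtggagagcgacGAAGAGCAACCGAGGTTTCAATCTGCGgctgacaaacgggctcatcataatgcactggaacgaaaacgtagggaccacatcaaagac
MAX-204: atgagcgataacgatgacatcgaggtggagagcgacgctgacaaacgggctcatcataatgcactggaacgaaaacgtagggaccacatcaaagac

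MAX-205, the form of 160 codons that holds the exon, was at 15.9, 17.7 and 13.9 TPM in the MCF10A libraries, 7.48, 6.85 and 6.43 in MCF10AT1 and 1.62, 1.13 and 0.69 in MCF10Ca1a. MAX-204, the form of 151 codons without it, was at 31.1, 23.5 and 24.1 TPM, then 21.9, 22.0 and 21.5, then 13.4, 16.0 and 13.6. The share of MAX-205 fell in MCF10Ca1a against MCF10A by 3.34 on the log2 scale of transcript over other transcripts (log2 change −3.34, limma adjusted p = 2.48e-04), whereas the change of MAX-204 was −0.07 (limma adjusted p = 0.818). The exon is also held by other transcripts. Of the TPM of transcripts that either hold or skip it, those that hold it made up 38.9 ± 6.03% in MCF10A, 39.3 ± 1.24% in MCF10AT1 and 35.9 ± 5.03% in MCF10Ca1a (SD, n = 3), with overlapping libraries. In estimated counts these shares were 37.3% to 45.8%, 34.3% to 35.2% and 38.4% to 47.7%, so that MCF10AT1 lay below the other lines. Leaving MAX-209 out of the TPM gave means of 44.5%, 39.3% and 37.6%. The lines were also apart in where the coding sequence ended. Of all MAX TPM, transcripts that share the stop codon of MAX-205 and MAX-204 made up 72.3%, 71.9% and 83.3% in the MCF10A libraries, 70.4% to 76.6% in MCF10AT1 and 51.1%, 54.0% and 43.5% in MCF10Ca1a. Those that end at the stop codon of MAX-206, 936 bases further upstream in the gene, made up 1.32 ± 0.70%, 5.15 ± 1.84% and 27.9 ± 1.44%. The libraries of the 3 lines did not overlap in that last share. Among them, MAX-206, annotated as a target of nonsense-mediated decay, was at 0 TPM in all MCF10A libraries and at 3.34, 1.82 and 1.94 in MCF10Ca1a, and MAX-218, of 121 codons, at 0.09 to 0.78 and at 3.15 to 3.77 TPM. Both shares rose in MCF10Ca1a against MCF10A (limma adjusted p = 3.86e-04 and 0.00237). MAX-202, which ends elsewhere again and has 134 codons, rose in share by 3.26 against MCF10A (limma adjusted p = 2.42e-04) and was the one member transcript called in MCF10AT1 (1.40, limma adjusted p = 0.049), a call lost in each of the 9 fits that left out 1 library. MAX-209, a short retained-intron transcript, was at 11.2, 11.4 and 0 TPM in the MCF10A libraries, which moves all MAX shares there. The share of MAX-201 changed by −1.27 in MCF10Ca1a against MCF10AT1 (limma adjusted p = 0.0215), a call lost in 5 of the 9 fits without 1 library. The grouping by stop codon was chosen after the values were seen and was not tested.

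**Figure D4:**
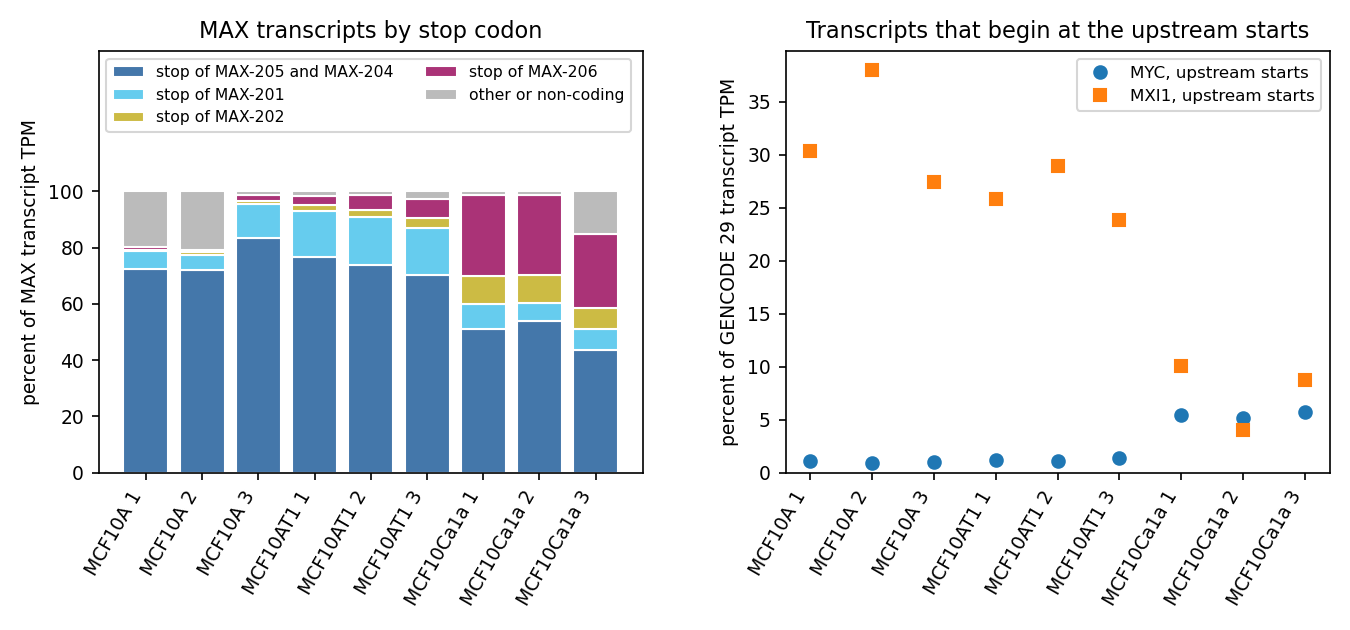
Left, percent of MAX TPM in each library by the stop codon of the transcript; right, percent of MYC and MXI1 TPM (transcripts found in GENCODE 29) in transcripts that begin at the upstream starts (MYC-201, MYC-203 and MYC-209; MXI1-202 and MXI1-207). The MAX-206 class grows from under 2.2% in each MCF10A library to over 26% in each MCF10Ca1a library, and in MCF10Ca1a the share is higher for MYC and lower for MXI1 than in the other lines.

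MXI1 is transcribed from alternative first exons. MXI1-202, of 295 codons, and MXI1-207 begin upstream of the other transcripts found in GENCODE 29, and together made up 31.9 ± 5.46% of the TPM of MXI1 transcripts found in GENCODE 29 in MCF10A, 26.2 ± 2.58% in MCF10AT1 and 7.60 ± 3.17% in MCF10Ca1a (SD, n = 3). In level, MXI1-202 stayed low, at 1.09 to 1.64 TPM in MCF10A and 0.41 to 1.61 in MCF10Ca1a. MXI1-201, of 228 codons, begins 18388 bases further downstream and was at 4.0, 2.88 and 3.98 TPM in MCF10A, 5.62, 6.51 and 5.13 in MCF10AT1, compared with 13.8, 16.95 and 14.6 in MCF10Ca1a. All matched transcripts that begin downstream summed to 3.78 ± 0.70 TPM in MCF10A and 15.7 ± 1.84 in MCF10Ca1a (SD, n = 3). The share of MXI1-201 rose by 1.01 (limma adjusted p = 0.00967) and that of MXI1-202 changed by −2.04 (limma adjusted p = 0.0135) in MCF10Ca1a against MCF10A. Transcripts found in GENCODE 29 held 37.9 ± 5.98% of MXI1 TPM in MCF10A and 44.98 ± 3.12% in MCF10Ca1a. In MCF10A and MCF10Ca1a, most of the rest was in ENST00000650843.1 and ENST00000652463.1. In MCF10AT1 these held 24.7% and 0% of MXI1 TPM. Over the 9 libraries, each was at 0 in some libraries and above 5 TPM in others, also within a line, so their division was not stable. The starts of these unmatched transcripts were not analysed here, and the values by start cover only the matched part.

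MYC also used its starts unequally. Among its transcripts found in GENCODE 29, which held 92.5% to 94.0% of MYC TPM as means of the lines, nearly all TPM was in those that begin downstream, such as MYC-202 (439 codons) at 141 to 184 TPM and MYC-205 (453 codons) at 69.0 to 88.5 TPM in MCF10A. Transcripts that begin upstream of the rest, MYC-201, MYC-203 and MYC-209, made up of this matched TPM 1.08%, 0.86% and 0.95% in the MCF10A libraries, 1.17%, 1.09% and 1.36% in MCF10AT1 and 5.48%, 5.12% and 5.69% in MCF10Ca1a. The MCF10Ca1a libraries were separate from the other 6. MYC-209 was listed at 0 TPM in all 6 libraries of MCF10A and MCF10AT1 and at 5.51, 6.18 and 7.28 TPM in MCF10Ca1a, and MYC-201 was at 1.86 to 2.99 TPM in MCF10A and 10.2 to 12.2 in MCF10Ca1a. Both shares rose in MCF10Ca1a against MCF10A (limma adjusted p = 1.83e-06 and 4.06e-04). The share of MYC-205 rose by 0.52 and that of MYC-202 changed by −0.41 (limma adjusted p = 0.00595 and 0.0081). The MYC-202 call was lost when transcripts of any TPM above 0 were tested (limma adjusted p = 0.0681). MYC-208 changed by −0.74 (limma adjusted p = 0.0193), a call lost without MCF10A replicate 2 and without MCF10Ca1a replicate 2 or 3 (limma adjusted p from 0.0506 to 0.0664). MYC-207 was at 2.26 to 2.81 TPM in MCF10A and 0.82 to 0.99 in MCF10Ca1a, and its share changed by −1.76 (limma adjusted p = 4.66e-04). MYC-201 and MYC-209 have annotated coding sequences of 257 and 114 codons, shorter than those of MYC-202 and MYC-205.

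Calls were also made on transcripts of the other members. In MLX, the shares of MLX-208 and MLX-209 changed by −1.06 and −2.96 in MCF10Ca1a against MCF10A (limma adjusted p = 0.0148 and 0.0201). The first call was lost without MCF10A replicate 2 (limma adjusted p = 0.0540) and the other without MCF10A replicate 3 (limma adjusted p = 0.0641). The main form MLX-203 was at 38.2 to 39.6 TPM in MCF10A, 31.6 to 35.2 in MCF10AT1 and 67.1 to 70.7 in MCF10Ca1a and its share was not called (0.35, limma adjusted p = 0.156). In MNT, the minor form MNT-209 changed by −0.89 (limma adjusted p = 0.0178), a call lost without MCF10A replicate 2 or 3 and without MCF10Ca1a replicate 1 or 3 (limma adjusted p from 0.0503 to 0.0579), beside the main form MNT-201, which was at 3.35 to 4.56 TPM in MCF10A and 13.2 to 14.1 in MCF10Ca1a. MXD1-201 carried most of MXD1, at 9.30 to 10.5 TPM in MCF10A and 33.9 to 38.5 in MCF10Ca1a, and MXD1-206 was at 0.27 to 0.68 and 3.54 to 6.40 TPM. Their shares changed by −1.56 and 1.45 in MCF10Ca1a against MCF10AT1 (limma adjusted p = 0.0258 and 0.0412). With a pseudocount of 1 TPM these became −0.32 and 0.096 and lost their calls (limma adjusted p = 0.284 and 0.778), and both calls were also lost with the replicate block (limma adjusted p = 0.0638 and 0.0874) and without MCF10Ca1a replicate 1 or 3. MXD3-204 was at 1.02 to 1.41 TPM in MCF10A and at 0 in all MCF10Ca1a libraries, and its share changed by −1.52 with a pseudocount of 0.1 TPM (limma adjusted p = 0.00943) but by 0.77 with a pseudocount of 1 TPM, so its direction rests on that setting. MXD4-201, the main form of MXD4, gained share by 0.65 in MCF10Ca1a against MCF10AT1 (limma adjusted p = 0.0462), and that call was lost with a pseudocount of 1 TPM, with transcripts of any level above 0, with the replicate block (limma adjusted p = 0.0779) and in 7 of the 9 fits without 1 library.

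Windows around the transcription start, 250 bases before it and 50 after, were searched for the E-box CACGTG, to which MYC, MXD and MLX dimers with their partners bind. RefSeq (GRCh38.p14) gave 12 windows for 9 of the 10 members, MYC being the one not matched. CACGTG reads the same on both strands, and 3 of the 12 windows held it, those of MLX, MNT and MXD4, while 7.26% of the 35116 windows of all genes did. The sequence around each E-box is printed with CACGTG in capitals, on the gene's strand and outside the annotated gene, to show the site that these members share:
MLX: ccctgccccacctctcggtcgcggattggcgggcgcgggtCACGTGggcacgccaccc
MNT: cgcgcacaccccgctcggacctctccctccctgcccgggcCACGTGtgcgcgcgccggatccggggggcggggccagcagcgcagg
MXD4: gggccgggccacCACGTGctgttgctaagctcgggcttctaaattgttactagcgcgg

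The printed stretches lie at chr17:42567010-42567067 (MLX, plus strand), chr17:2401208-2401293 (MNT, minus strand) and chr4:2262302-2262359 (MXD4, minus strand) of GRCh38.p14, and their E-boxes begin 50, 193 and 238 bases before the start. The 3 genes did not move together, since MLX and MNT rose and MXD4 fell in MCF10Ca1a. The non-canonical E-box CACGCG, searched on both strands, was in the windows of MXD3 and of 1 of the 3 starts of MXI1, beside 11.4% of all windows. The E2F site written TTTCGCGC or TTTGGCGC, on both strands, had 2 matches in the window of MYCN and 0 in the other 11, beside 1.15% of all windows. A match describes the letters of a window and is no measure of binding.

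Cofactors of the network moved in both directions. Of 18 cofactors tested, 5 rose and 8 fell in MCF10AT1 against MCF10A, 6 rose and 8 fell in MCF10Ca1a against MCF10A, and 10 rose and 6 fell in MCF10Ca1a against MCF10AT1. Over all genes, 29.8% rose and 31.8% fell, 39.0% rose and 41.9% fell, and 38.0% rose and 40.3% fell in these comparisons. The share of cofactors that rose in the last comparison was above that of all genes, and the shares of the list were not tested. On log2(TPM + 0.1) only 1 rose in MCF10AT1 against MCF10A and 3 fell in MCF10Ca1a against MCF10A. The medians of their log2 changes were −0.12, −0.03 and 0.31, beside medians of all genes within 0.05 of 0. RUVBL2, an ATPase of the TIP60 and INO80 complexes, rose by 0.97 ± 0.05 in MCF10AT1 against MCF10A. ACTL6A, an actin-related subunit of such complexes, fell by 0.79 ± 0.05 in MCF10Ca1a against MCF10A (log2 change −0.79). SIN3B and ZBTB17, which encode a corepressor for MXD proteins and the MYC partner MIZ-1, rose by 0.40 and 0.51, while HDAC1, one of the deacetylases recruited by SIN3, fell by 0.18 (log2 change −0.18). MGA, a dual-specificity MAX partner, had a log2 change of −0.70 ± 0.06 in MCF10AT1 against MCF10A. In MCF10Ca1a against MCF10A its −0.18 was called on counts but not with DESeq2 (−0.14, adjusted p = 0.0789), on the thinned counts, on the TPM scales or on the scaled counts, where the change was larger (−0.29, edgeR adjusted p = 0.0567). MLXIP had −0.25 in that comparison, which turned to 0.10 on log2(TPM + 0.1), beside the median of all genes of 0.10. Its call was also lost on the deposited length-scaled counts (−0.062, edgeR adjusted p = 0.399) and scaled counts (−0.053, edgeR adjusted p = 0.523).

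Genes that control the stability of the MYC protein moved in both directions in each comparison. Of 18 tested, 8 rose and 9 fell in MCF10Ca1a against MCF10A, 5 rose and 9 fell in MCF10AT1 against MCF10A, and 6 rose and 10 fell in MCF10Ca1a against MCF10AT1, beside 80.9%, 61.6% and 78.4% of all genes called. On log2(TPM + 0.1) only 2 rose in MCF10AT1 against MCF10A and 6 fell in MCF10Ca1a against MCF10AT1. In MCF10AT1 against MCF10A, 3 rose without MCF10A replicate 2, MCF10AT1 replicate 1 or MCF10AT1 replicate 2. None rose there on log2(TPM + 1) without a filter. GSK3B, a kinase that phosphorylates MYC on the way to its degradation, rose by 1.10 ± 0.06 in MCF10Ca1a against MCF10A, and USP36, a nucleolar deubiquitinase of MYC, by 1.22 ± 0.06 against MCF10AT1. FBXW7, the ubiquitin ligase subunit that recognizes phosphorylated MYC, was lower in MCF10Ca1a (log2 change −0.66), as were SKP2 (−1.45) and CIP2A, a PP2A inhibitor that stabilizes MYC (−1.73), each against MCF10A. PLK1, a mitotic kinase, was at 226 to 262 CPM in MCF10A, 133 to 144 in MCF10AT1 and 16.8 to 20.1 in MCF10Ca1a, a log2 change of −3.70 ± 0.08 in MCF10Ca1a against MCF10A. PLK1 and AURKA (−2.43) are also genes of dividing cells. SET, a PP2A inhibitor, rose by 0.43 ± 0.06 in MCF10AT1 against MCF10A, a call lost on log2(TPM + 1) without a filter (0.27, limma adjusted p = 0.057).

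Most of the nucleolar genes, known targets of MYC in ribosome production, fell in MCF10Ca1a, where MYC mRNA rose. Of 36 nucleolar genes, all tested, 27 fell and 4 rose in MCF10Ca1a against MCF10A, with a median log2 change of −0.49 beside −0.05 for all genes, of which 41.9% fell and 39.0% rose. In MCF10AT1 against MCF10A 20 fell and 5 rose (median −0.16), beside 31.8% and 29.8% of all genes, and in MCF10Ca1a against MCF10AT1 21 fell and 5 rose (median −0.32), beside 40.3% and 38.0%. The last split depended on the scale, with 13 lower and 11 higher on log2(TPM + 0.1), where the median of all genes was 0.21. Its 5 higher genes became 3 without a filter on counts, and 8 after thinning or with only the 2 lines. In MCF10AT1 against MCF10A, 3 were higher on log2(TPM + 0.1) and without MCF10AT1 replicate 1. MRTO4, a factor of large-subunit assembly, was at 139 to 147 CPM in MCF10A, 126 to 146 in MCF10AT1 and 50.7 to 53.0 in MCF10Ca1a (log2 change against MCF10A −1.47 ± 0.06). BOP1, a further large-subunit factor, changed by −0.62 ± 0.07 in MCF10AT1 and by −1.01 in MCF10Ca1a against MCF10A. NOP56 changed by −1.36, NCL by −0.72 and NPM1 by −0.64 in MCF10Ca1a against MCF10A. FBL, the methyltransferase of box C/D particles, went the other way, with rises of 0.66 ± 0.06 in MCF10AT1 and 0.55 ± 0.06 in MCF10Ca1a. DDX21, a nucleolar helicase, rose by 0.42 ± 0.07 in MCF10Ca1a against MCF10AT1.

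Metabolic and growth targets gave a similar picture in MCF10Ca1a. Of 32 genes tested, 23 fell and 7 rose in MCF10Ca1a against MCF10A (median −0.58 beside −0.05), and 22 fell and 6 rose against MCF10AT1 (median −0.53 beside −0.04), with 10 higher on log2(TPM + 0.1). Of all genes 41.9% fell and 39.0% rose, and 40.3% fell and 38.0% rose, in these comparisons. In MCF10AT1 against MCF10A, 12 rose and 8 fell (median 0.06), beside 29.8% and 31.8% of all genes, and on log2(TPM + 0.1) only 5 rose. AMD1, an enzyme of polyamine synthesis, changed by −1.89 ± 0.07 in MCF10Ca1a against MCF10AT1, and LDHA by −1.54 against MCF10A. SLC2A1, the glucose transporter GLUT1, was at 69.6 to 91.4 CPM in MCF10A, 124 to 136 in MCF10AT1 and 255 to 281 in MCF10Ca1a, a rise of 0.72 ± 0.08 and of 1.75 ± 0.09 on the log2 scale. HK2, which traps glucose in the cell, rose by 1.09 ± 0.08 in MCF10Ca1a against MCF10AT1. CCND2, cyclin D2, had 1522, 1257 and 1449 counts in MCF10A, a summed 1 count in MCF10AT1 and a summed 1 count in MCF10Ca1a. The ratio of MCF10A to MCF10AT1 had a 95% exact interval starting at 745, and that of MCF10A to MCF10Ca1a at 400, both covering counting error only.

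Genes that MYC is known to repress mostly fell in MCF10Ca1a. Of 11 tested out of 12, 3 rose and 7 fell in MCF10Ca1a against MCF10A (median −1.23), 1 rose and 9 fell against MCF10AT1 (median −1.20), and 5 rose and 4 fell in MCF10AT1 against MCF10A (median −0.03). Of all genes 41.9%, 40.3% and 31.8% fell and 39.0%, 38.0% and 29.8% rose in these comparisons, with medians within 0.05 of 0. GADD45A, a growth arrest gene, rose by 2.57 ± 0.05 in MCF10Ca1a against MCF10A, with 26.6 to 27.7 CPM in MCF10A, 43.2 to 46.1 in MCF10AT1 and 159 to 162 in MCF10Ca1a. CDKN1A, the cyclin-dependent kinase inhibitor p21, rose by 1.21 in MCF10AT1 and was lower by 0.15 in MCF10Ca1a (log2 change −0.15), and CDKN2C changed by −3.33 in MCF10Ca1a, each against MCF10A. THBS1, a matrix protein, was higher by 1.91 ± 0.08 in MCF10AT1, and NDRG2 changed by −1.64 ± 0.21 there. GAS1 had 206 to 248 counts in MCF10A, 121 to 154 in MCF10AT1 and 0 to 2 in MCF10Ca1a, a ratio of MCF10A to MCF10Ca1a of 119 with a 95% exact interval from 40.5 to 578 for counting error. PDGFRB of this list is also one of the fibroblast markers.

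Most known targets of the MLX branch rose in MCF10Ca1a. Of 9 tested out of 11, 7 rose and 1 fell in MCF10Ca1a against MCF10A (median 1.92 beside −0.05), 8 rose and 1 fell against MCF10AT1 (median 0.81), and 5 rose and 2 fell in MCF10AT1 against MCF10A (median 0.63). Of all genes 39.0%, 38.0% and 29.8% rose in these comparisons. TXNIP, the arrestin-like gene whose transcription follows glucose uptake, was at 131, 122 and 117 CPM in MCF10A, 337, 331 and 310 in MCF10AT1, and then 1259, 1249 and 1269 in MCF10Ca1a. Its log2 change was 1.40 in MCF10AT1 and 3.35 ± 0.06 in MCF10Ca1a against MCF10A. ARRDC4, its paralog and the other gene best known for this regulation, had nearly the same changes, 1.39 and 3.30, from 15.5 to 16.7 CPM in MCF10A to 157 to 164 in MCF10Ca1a. The lipid synthesis genes FASN and SCD rose by 2.02 and 1.92 in MCF10Ca1a against MCF10A, whereas ELOVL6 changed by −1.57 ± 0.05. SCD rose by 1.61 ± 0.08 and RGS16 changed by −0.71 ± 0.12 in MCF10AT1 against MCF10A. FASN, SCD, ACLY and ACACA are also regulated by SREBP1 and ELOVL6 likewise, so 5 of the 9 are not specific to MLX.

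Proliferation genes fell in MCF10Ca1a. All 20 were lower in MCF10Ca1a against MCF10A and against MCF10AT1, with medians of −1.95 and −1.85, and in MCF10AT1 against MCF10A 15 fell and 2 rose (median −0.38), with 4 higher without MCF10A replicate 1. Of all genes 41.9%, 40.3% and 31.8% fell in these comparisons. Their summed level was 2994 to 3253 TPM in MCF10A, 2280 to 2436 in MCF10AT1 and 830 to 838 in MCF10Ca1a. CENPF, a kinetochore gene, changed by −1.39 ± 0.07 in MCF10AT1 and −3.77 ± 0.08 in MCF10Ca1a against MCF10A, and CCNB1, cyclin B1, by −3.37 ± 0.06 in MCF10Ca1a against MCF10AT1. E2F1 rose by 0.49 ± 0.06 in MCF10AT1 against MCF10A. The median of the list was below 0 in each comparison, as were the log2 changes of MXD3, MXD4 and MAX and the median of the nucleolar genes, and the part of proliferation in those changes was not tested.

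**Figure D5:**
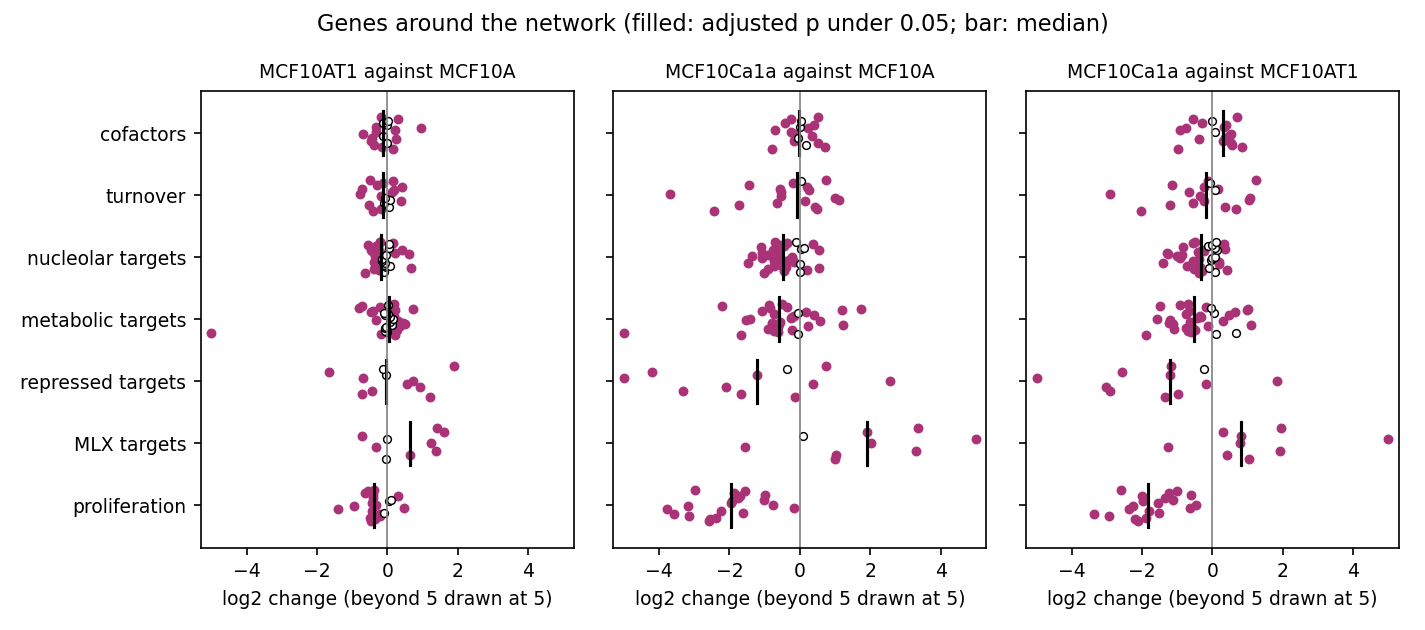
Fitted log2 changes of the tested genes of 7 lists in the 3 comparisons; filled points have an adjusted p under 0.05, bars mark the list's median, and values beyond 5 are drawn at 5. In both comparisons with MCF10Ca1a the medians of the proliferation, nucleolar, metabolic and repressed-target lists lie to the left of 0 and that of the MLX list to the right, with single genes on the other side in all but the proliferation list.

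Near the genes of the MYC family, noncoding neighbours were read as well. PVT1, the long noncoding gene downstream of MYC, was at 18.2, 19.9 and 21.6 CPM in MCF10A, 24.7, 23.7 and 24.8 in MCF10AT1, compared with 62.1, 63.5 and 61.7 in MCF10Ca1a. Its rise of 1.65 ± 0.06 in MCF10Ca1a against MCF10A was larger than the 0.22 of MYC, and the MCF10AT1 step was 0.29 ± 0.06. CASC11, just upstream of MYC, had 5 to 9 counts in MCF10A, 14 to 18 in MCF10AT1 and 12 to 18 in MCF10Ca1a, with log2 changes of 1.20 and 2.06 against MCF10A. MYCBP, a protein-coding gene read with these neighbours, encodes a MYC-binding protein and changed by −1.26 ± 0.07 in MCF10Ca1a against MCF10A. MYCNOS and MYCL-AS1, the antisense partners of MYCN and MYCL, had at most 1 and 3 counts in any library.

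Genes whose profile over the 9 libraries lay nearest to that of a member were named by the root mean square difference of log2 CPM centred on each gene's mean, as a description. Nearest to MYC was MTMR12 (0.0202), a myotubularin-related gene, and to MAX it was IDE (0.0324), the insulin-degrading enzyme. MXD1 was nearest to HERPUD1 (0.0689), a gene of the endoplasmic reticulum stress response, MXI1 to RYBP (0.0439), a Polycomb component, and MNT to DHX34 (0.0434). MXD3 was nearest to COG2 (0.0676), MXD4 to ZKSCAN8 (0.0356), MLX to RNF181 (0.0485) and MYCL to the keratin gene KRT8 (0.106). Ranked after these were POLR1G for MYC, ZDHHC20 for MAX, SLC41A3 for MXD1, TC2N for MXI1, PHGDH for MNT, GFUS for MXD3, BARD1 for MXD4, AKIRIN1 for MLX and PDLIM2 for MYCL. Among the members themselves, MXI1 and MNT were nearest to each other (0.212), MXD3 and MXD4 likewise (0.306), and MYC was nearest to MLX (0.252). All 9 libraries fall into 3 lines, so such profiles rest on 3 levels.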

How the data were processed

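Estimated counts and TPM per gene and per transcript were deposited by the authors as tables of all 9 libraries. Per the submitters' processing notes, Salmon and the genome build hg38 were used, and the Salmon version, transcript annotation and strand setting are not given in the sources used here. Those counts were rounded before fitting. The 17910 genes that passed edgeR's filterByExpr (minimum count 10, minimum total 15) were scaled by TMM and fitted in 1 model over the 3 lines with edgeR 4.0.16 (quasi-likelihood test, R 4.3.3), and p-values were adjusted by Benjamini-Hochberg over those genes. Standard errors and 95% intervals come from that fit. Shares of transcripts were tested with limma 3.58.1 on log2 of deposited TPM over that of the gene's other transcripts, with a pseudocount of 0.1. Both steps were tested on simulated data.

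Members and gene lists were chosen with earlier results of these data known. From each list, the gene that rose most and the gene that fell most per comparison, among called genes averaging 100 or more counts in the higher line, were named, besides all members, TXNIP, ARRDC4, MGA, MLXIP, MLXIPL, PVT1 and MYCNOS. Some results that this rule names are not reported here. Other list genes in the text were picked after their values were seen. Alternatives were DESeq2 1.42.0 and its size factors, no filter, the deposited length-scaled and scaled counts, thinning to the smallest library, fits of 2 lines only, a replicate block, limma on log2 TPM with pseudocounts of 1 and 0.1, and leaving out each library. Of the 120 member transcripts, 83 were matched to GENCODE 29. Intervals of ratios cover counting error only.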

Additional observations from a re-analysis of the deposited data

How the results depend on the processing

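Of 540 log2 changes of members over all alternatives, 514 kept direction and side of the threshold. MYC in MCF10AT1 against MCF10A, never called, turned to −0.12 on log2(TPM + 1), with and without a filter, and to −0.13 on log2(TPM + 0.1), and lay between −0.0096 and 0.072 when a library was left out, with −0.00052 without MCF10A replicate 2. MYCL in MCF10Ca1a against MCF10AT1 turned to 0.029 on log2(TPM + 1), with and without a filter, and to 0.051 on log2(TPM + 0.1). MLXIP in MCF10Ca1a against MCF10A turned to 0.094 on log2(TPM + 1), with and without a filter, and to 0.10 on log2(TPM + 0.1), and in MCF10Ca1a against MCF10AT1 from 0.068 to −0.021 without a filter on counts, while it was called higher on length-scaled counts (0.16) and on log2(TPM + 1) (0.41) and log2(TPM + 0.1) (0.45). The causes of these turns were not tested.

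Counts of calls moved mainly on the TPM scales. In MCF10AT1 against MCF10A, log2(TPM + 1) and log2(TPM + 0.1) each gave 5 members lower, 1 cofactor, 2 turnover, 3 nucleolar and 5 metabolic genes higher, and without a filter log2(TPM + 1) gave 5, 1, 0, 3 and 4. Over all genes 3447 were higher on log2(TPM + 1) and 3208 without a filter, against 5335. The scaled counts gave 5 metabolic genes lower. In MCF10Ca1a against MCF10A, 3 cofactors were lower on log2(TPM + 1) and log2(TPM + 0.1) and 4 without a filter. In MCF10Ca1a against MCF10AT1, both TPM scales gave 6 turnover genes lower, 11 nucleolar genes higher and 13 lower, and 10 metabolic genes higher. Without a filter, log2(TPM + 1) gave 2 members, 3 cofactors, 6 turnover and 11 nucleolar genes lower, 11 nucleolar and 10 metabolic genes higher. Nucleolar genes higher there numbered 3 without a filter on counts, 8 with only the 2 lines and 8 after thinning to the smallest library.

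Leaving out 1 library, in MCF10AT1 against MCF10A, gave 2 to 4 proliferation genes, 3 to 7 turnover genes and 3 to 6 nucleolar genes higher. Called member transcript shares then numbered 0 to 1 in MCF10AT1 against MCF10A, the 1 being MAX-201 without MCF10A replicate 3, and 9 to 15 in MCF10Ca1a against MCF10AT1.

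With a pseudocount of 1 TPM, 2 member transcript shares were called in MCF10AT1 against MCF10A, and the share changes of MXD1-206, MXD3-204 and MXI1-202 turned to 0.036, 0.30 and −0.055 there. MXD3-204 also turned to 0.77 in MCF10Ca1a against MCF10A and 0.47 against MCF10AT1. With 1 library left out, uncalled shares that took both signs in MCF10AT1 against MCF10A were MXD4-201 (−0.25 to 0.076), MXI1-202 (−0.23 to 0.21), MNT-209 (−0.20 to 0.092), MXD1-206 (−0.58 to 0.069) and MYC-208 (−0.15 to 0.024), as did MAX-201 in MCF10Ca1a against MCF10A (−0.23 to 0.39).

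Same-numbered libraries of different lines deviated together by correlations from −0.06 to 0.05 only, so the numbers were not taken to pair them. With the replicate block, 3 members were higher and 3 lower in MCF10AT1 against MCF10A, 6 and 3 in MCF10Ca1a against MCF10A, and 5 and 4 in MCF10Ca1a against MCF10AT1, and called member transcript shares numbered 0, 16 and 12. Depth limits mainly MYCN, MYCL and minor transcripts in MCF10Ca1a, where 3 counts correspond to 0.0851 to 0.0911 CPM.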
